A study of Mus musculus with 24 samples.

Results

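Ribosome biogenesis genes and Myc were followed in infarcted mouse heart tissue over the week after reperfusion. The set holds 35 genes: Myc and 34 genes whose products transcribe, modify or assemble ribosomes. A gene was taken up through the accession of its array probes, matched to its symbol in the RefSeq mouse gene table, and its brightest probe stood for it. All 35 genes were measured, out of 15875 genes tested, and each was well above background on all 24 arrays.

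Ribosomes are made mainly in the nucleolus, where RNA polymerase I transcribes the ribosomal RNA precursor. Small nucleolar ribonucleoproteins (snoRNPs) then guide its methylation and pseudouridylation, and many assembly factors fold and cut it into the small and the large subunit. Myc, a transcription factor that pairs with Max and binds the DNA hexamer called the E-box, is known to drive many of these genes in growing cells, and the demand for ribosomes rises when inflammatory and stromal cells proliferate in an injured heart.

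Samples came from male C57BL6/J mice, from the part of the anterior heart wall put at risk when the left anterior descending coronary artery had been closed for 45 min. Animals given IGF1 (insulin-like growth factor 1, known for its action on cell growth and survival) got 40 ng/g under the skin as reperfusion started and 1 µg/g per day from an osmotic pump for at most 3 days. Vehicle animals got buffered saline with albumin. Tissue was taken 24, 48 or 168 h after reperfusion, so the infusion had ended before the last of these times. Each of the 6 groups held 4 one-colour arrays. The sample labels give ischemia for the vehicle animals while the design text calls controls sham-operated, and the sample labels were followed. They call the arrays separate samples without naming animals, so p-values here reflect only how these samples spread, which may in part be technical.

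Spots well above background made up 52.7 to 62.9% per array. Across genes, which are not independent replicates, r between arrays within a group was 0.983 to 0.993. All 10 cardiomyocyte markers, among them Myh6 and Tnnt2, were well above background on all arrays. The tissue is a mixture, and a lower signal from fewer cells of a type cannot be told apart from less RNA per cell. Levels are given on the log2 scale, as the processed signal over each array's 75th percentile. Levels of different genes come from different probes and are not set against each other.

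All 35 genes had a lower level at 168 h than at 24 h in both treatments. By limma, 35 of 35 members were lower at 168 h than at 24 h in IGF1 hearts (adjusted p under 0.05), where 33.9% of all genes tested were lower. In vehicle hearts the count was again 35 of 35, against 32.1% of all genes. The members' median log2 difference was -1.33 in IGF1 hearts, beside -0.09 for all genes, and -1.48 in vehicle hearts, beside -0.03 for all genes. More than 2-fold lower were 29 members in IGF1 hearts and 32 in vehicle hearts, and the share of all genes that fell as far was not counted. The members differed in size of change: Ddx21 fell most in IGF1 hearts (log2 difference -2.27) and Myc in vehicle hearts (-2.54), and Polr1c fell least in both (-0.29 in IGF1 and -0.69 in vehicle hearts). The plot of late against early differences shows every member left of 0.

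**Figure D1:**
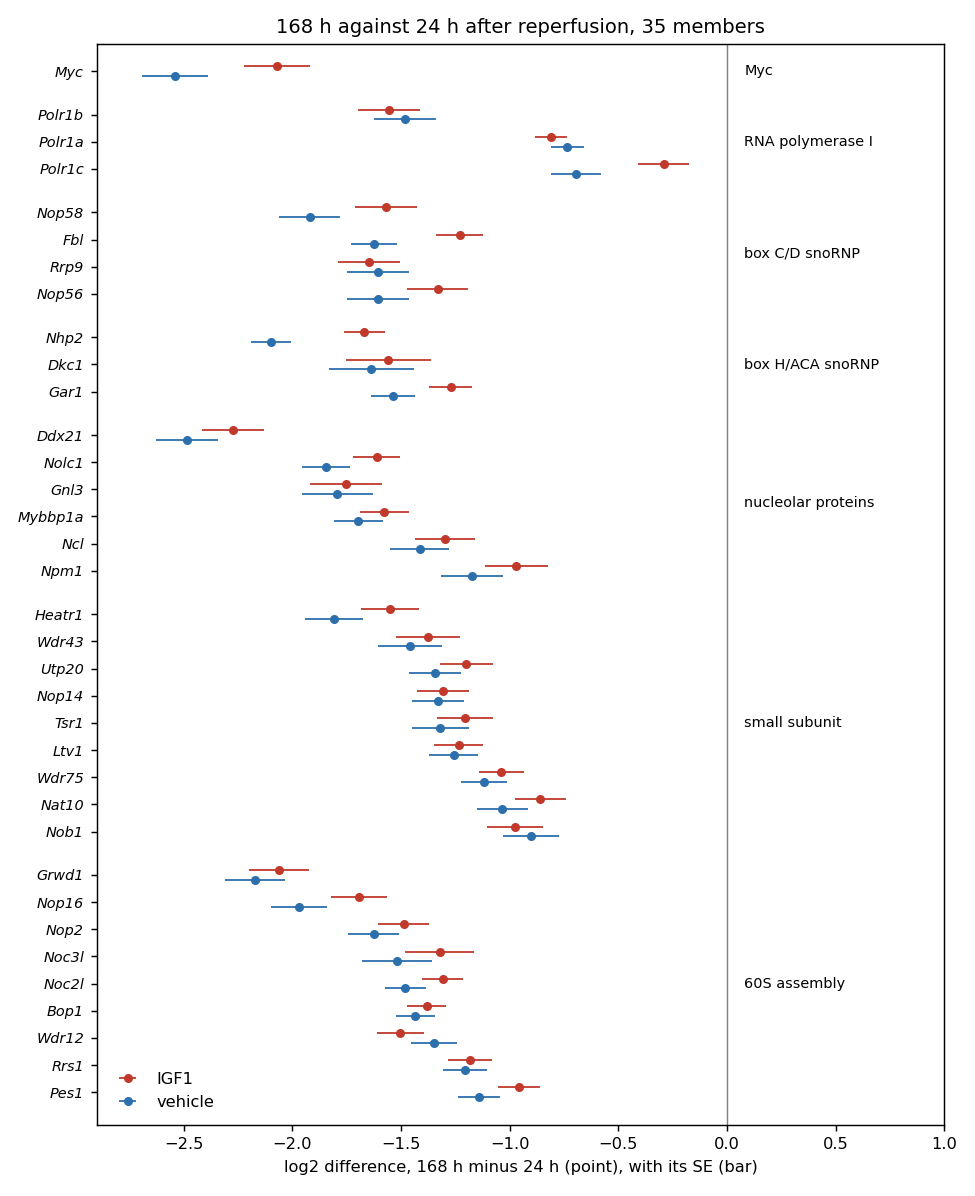
The log2 difference between 168 h and 24 h after reperfusion (x axis) for each of the 35 genes, grouped by role, in IGF1 hearts (red) and vehicle hearts (blue), with bars of 1 standard error of the limma fit. All points lie below 0, from -2.54 for Myc in vehicle hearts to -0.29 for Polr1c in IGF1 hearts.

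The decline came in 2 steps of unequal size. Between 24 and 48 h, 21 members were lower at 48 h in IGF1 hearts (21.3% of all genes) and 29 in vehicle hearts (11.5% of all genes), and 0 were higher in IGF1 hearts (16.3% of all genes) or vehicle hearts (11.2% of all genes). The members' medians for this step were -0.35 in IGF1 hearts and -0.46 in vehicle hearts, beside -0.08 and -0.02 for all genes in the same order. Between 48 and 168 h all 35 were lower at 168 h in IGF1 hearts (26.2% of all genes) and all 35 in vehicle hearts (28.1% of all genes), with medians of -0.97 and -0.98. The number lower at both steps was 21 in IGF1 hearts, where 5.52% of all genes did so, and 29 in vehicle hearts, where 5.17% did so. The later arrays lay below all earlier ones at both steps for 11 members in IGF1 hearts (5.27% of all genes) and for 25 members in vehicle hearts (5.32% of all genes).

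By 48 h the median member had covered 26.0% of its whole difference between 24 and 168 h in IGF1 hearts and 31.9% in vehicle hearts. Small-subunit factors had gone furthest, with medians of 37.4% in IGF1 hearts and 42.5% in vehicle hearts, and box C/D snoRNP proteins least among the roles with several members, with 10.7% in IGF1 hearts and 22.6% in vehicle hearts. Single members ranged widely: in vehicle hearts Nop14 had covered 61.4% and Polr1b 57.4%, and Npm1 only 13.0%. These shares are ratios of group means and were not tested. The count of the first step rests in part on single arrays. Leaving out vehicle replicate 3 at 24 h left 18 members lower at 48 h in vehicle hearts, and leaving out IGF1 replicate 4 at 24 h left 14 in IGF1 hearts. How many of all genes were lower with these arrays left out is not given here.

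Myc showed the largest late change of any member in vehicle hearts. In IGF1 hearts its level was 0.73, 1.33, 1.22 and 1.79 on the 4 arrays at 24 h, 1.13, 0.98, 1.06 and 0.96 at 48 h, and -1.01, -0.85, -0.71 and -0.64 at 168 h. Vehicle hearts gave Myc levels of 1.54, 1.31, 1.84 and 1.41 at 24 h, 1.02, 1.09, 0.90 and 0.83 at 48 h, and -0.98, -1.01, -1.01 and -1.05 at 168 h. Every 168 h array lay below every earlier one in both treatments, while the IGF1 arrays at 24 and 48 h overlapped and the vehicle arrays at those times did not. Myc was 4.19-fold lower at 168 h than at 24 h in IGF1 hearts (log2 -2.07, SE 0.15, adjusted p = 5.66e-10) and 5.81-fold lower in vehicle hearts (log2 -2.54, SE 0.15, adjusted p = 4.08e-11). Its first step passed in vehicle hearts (log2 -0.57, adjusted p = 0.0109) and not in IGF1 hearts (log2 -0.23, adjusted p = 0.246). The difference between these first steps was 0.34 (SE 0.21, adjusted p = 0.425). A second, dimmer Myc probe differed by -2.89 between 168 and 24 h in vehicle hearts.

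**Figure D2:**
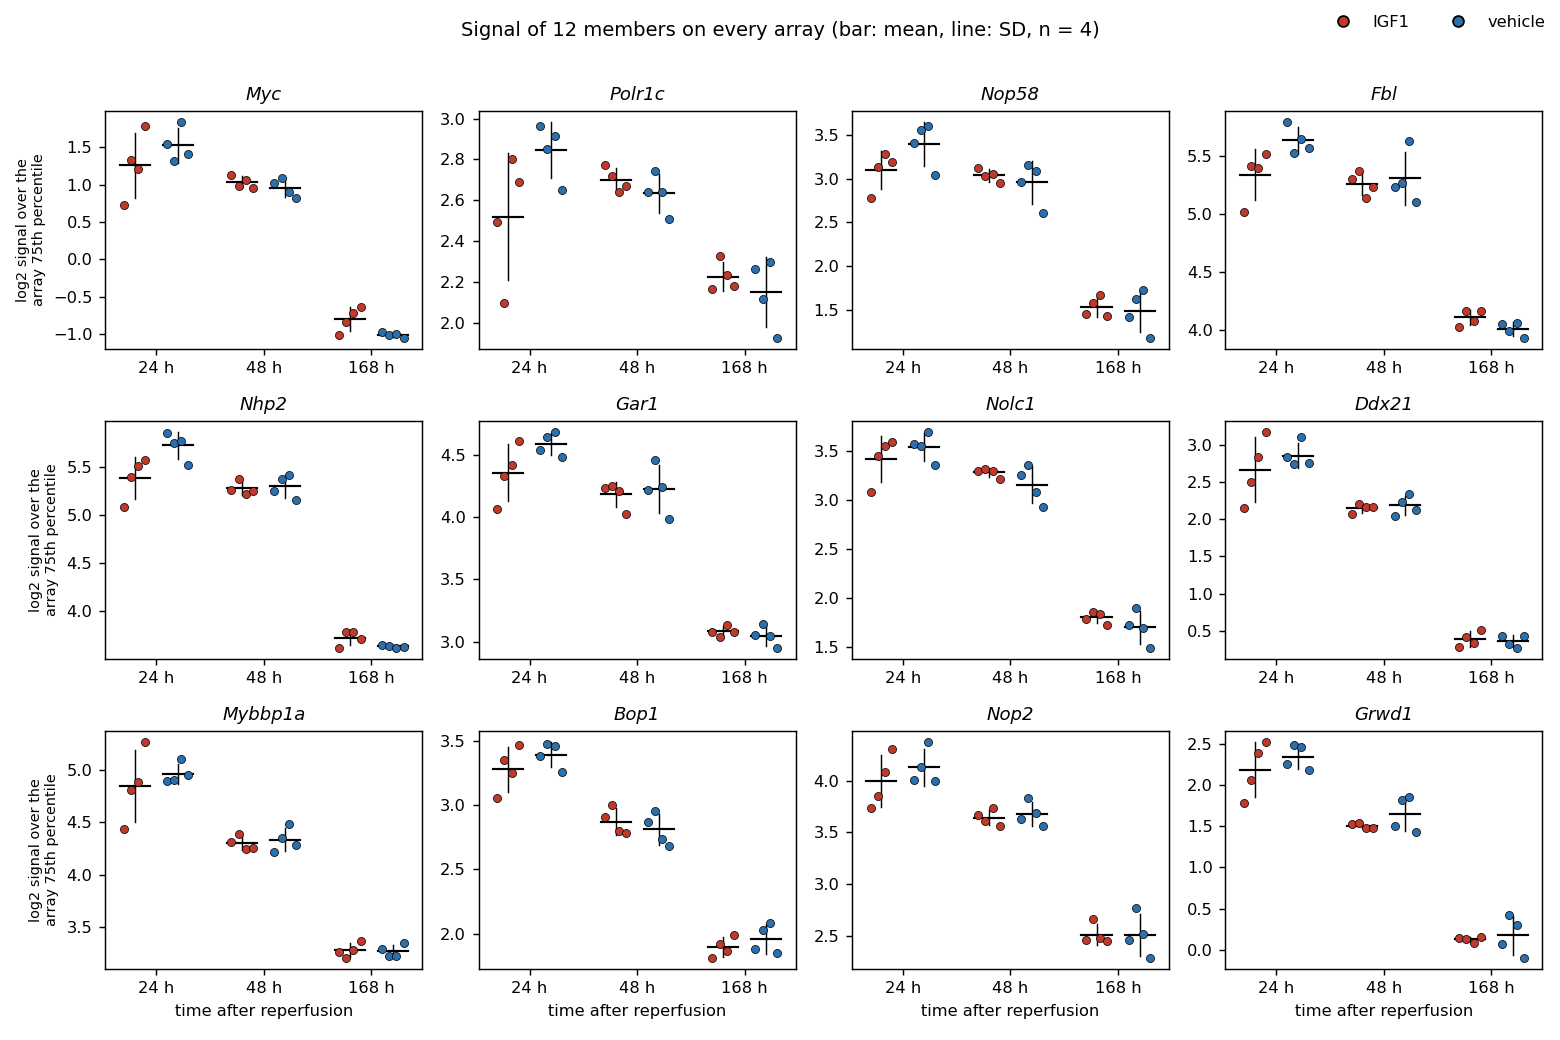
Level (log2 signal over the 75th percentile of the array, y axis) of 12 members on every array at 24, 48 and 168 h (x axis), IGF1 in red and vehicle in blue, with the group mean as a bar and the SD as a line (n = 4). The 168 h arrays lie below the 24 h arrays of the same treatment in each panel except that of Polr1c with IGF1, where 1 array at 24 h reads 2.10 and the 168 h arrays 2.17 to 2.33.

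The E-box was looked for in the promoters because Myc and these genes were all lower at 168 h than at 24 h. A link between Myc and their decline was not tested. The windows, from RefSeq on GRCm38.p6, run from 250 bases before to 50 bases after the gene start, and the motif searched was CACGTG, which reads the same on both strands. A window was held for 30 members, of which 8 (26.7%) contained the motif, beside 11% of the 12551 genes tested that had a window and 8.09% of all 27025 genes with one. Among the related lists described below, the share was 24.0% of 50 other ribosome biogenesis factors and 44.4% of 18 Myc targets outside ribosome biogenesis. It was 18.2% of 11 RNA polymerase I factors, 13.3% of 30 ribosomal protein genes and 7.69% of 13 cell cycle genes. The motif is thus not particular to the members. A match is a description of the letters, not of binding. The 8 sites are shown 5′ to 3′ on the gene's strand, with the motif in capitals, so that the flanks can be compared:
Grwd1, chr7:45830740-45830767, minus strand: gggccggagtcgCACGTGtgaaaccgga
Mybbp1a, chr11:72441355-72441376, plus strand: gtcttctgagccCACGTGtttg
Nop2, chr6:125131811-125131840, plus strand: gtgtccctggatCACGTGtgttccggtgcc
Pes1, chr11:3963965-3963994, plus strand: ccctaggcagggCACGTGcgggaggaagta
Ltv1, chr10:13193092-13193121, minus strand: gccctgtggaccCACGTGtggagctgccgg
Utp20, chr10:88826765-88826789, minus strand: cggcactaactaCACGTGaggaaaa
Tsr1, chr11:74898092-74898121, plus strand: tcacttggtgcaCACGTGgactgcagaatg
Wdr43, chr17:71616220-71616249, plus strand: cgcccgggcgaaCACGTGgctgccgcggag

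In 7 of these genes the motif lies just downstream of the gene start, beginning between base 3 (Pes1) and base 41 (Mybbp1a) of the transcript, and in Nop2 it begins 60 bases upstream. The 250 bases before the start of Nop2 (chr6:125131633-125131882, plus strand) are shown because they alone hold the motif upstream, in capitals:
Nop2 upstream: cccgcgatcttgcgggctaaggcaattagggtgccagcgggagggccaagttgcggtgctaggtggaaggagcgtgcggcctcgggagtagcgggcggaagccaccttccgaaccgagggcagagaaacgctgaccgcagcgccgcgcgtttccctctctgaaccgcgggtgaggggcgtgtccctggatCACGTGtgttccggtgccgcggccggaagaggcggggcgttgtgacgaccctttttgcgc
The 8 genes with the motif differed between 168 and 24 h in vehicle hearts by -2.17 (Grwd1), -1.70 (Mybbp1a), -1.62 (Nop2), -1.46 (Wdr43), -1.34 (Utp20), -1.32 (Tsr1), -1.26 (Ltv1) and -1.14 (Pes1) on the log2 scale. Members without it, such as Ddx21 and Nhp2, reached differences as large.

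Of the 3 RNA polymerase I subunits in the set, Polr1b, one of the large catalytic subunits, had the larger late difference, and Polr1a, the other, a smaller one. Polr1b was lower at 168 h than at 24 h by 1.56 in IGF1 hearts (adjusted p = 1.22e-08) and by 1.48 in vehicle hearts (adjusted p = 2.10e-08) on the log2 scale. For Polr1a the log2 differences were -0.81 in IGF1 and -0.73 in vehicle hearts, both past the threshold.

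Polr1c, a subunit shared with RNA polymerase III, had the smallest decline of the 35 members. IGF1 hearts gave it levels of 2.49, 2.10, 2.80 and 2.69 at 24 h, 2.77, 2.72, 2.64 and 2.67 at 48 h, and 2.17, 2.33, 2.23 and 2.18 at 168 h. Vehicle hearts gave Polr1c 2.97, 2.85, 2.92 and 2.65 at 24 h, 2.64, 2.74, 2.64 and 2.51 at 48 h, and 2.26, 2.12, 2.30 and 1.93 at 168 h. The IGF1 arrays at 24 h spanned the range of the other times, while in vehicle hearts the 168 h arrays all lay below the 24 h arrays. Its late difference was -0.69 in vehicle hearts (SE 0.12, adjusted p = 2.86e-05) and -0.29 in IGF1 hearts (SE 0.12, adjusted p = 0.0361). The IGF1 call was lost under 10 of its alternatives, with adjusted p between 0.000743 and 0.579 over all of them.

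The box C/D snoRNP proteins, which build the particles that methylate the ribose of ribosomal RNA, all fell late. The 4 members differed between 168 and 24 h by -1.65 to -1.23 in IGF1 hearts and by -1.92 to -1.61 in vehicle hearts. Nop56, Nop58 and the methyltransferase Fbl form the core of the particle, and Rrp9 belongs to the one that directs the first cuts of the precursor. Between 24 and 48 h Rrp9 alone of the 4 passed in IGF1 hearts (log2 -0.68, adjusted p = 0.000958), and Nop56 alone did not pass in vehicle hearts (log2 -0.35, adjusted p = 0.0785).

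Nop58 had its larger difference after 48 h in both treatments. It read 2.78, 3.13, 3.28 and 3.19 in IGF1 hearts at 24 h, 3.13, 3.02, 3.06 and 2.95 at 48 h, and 1.45, 1.58, 1.66 and 1.42 at 168 h. Vehicle hearts gave Nop58 3.40, 3.56, 3.60 and 3.05 at 24 h, 2.96, 3.16, 3.09 and 2.61 at 48 h, and 1.41, 1.62, 1.72 and 1.17 at 168 h. The 24 and 48 h arrays overlapped in both treatments and the 168 h arrays lay apart below them. Nop58 was 2.97-fold lower at 168 h than at 24 h in IGF1 hearts (adjusted p = 9.99e-09) and 3.79-fold lower in vehicle hearts (adjusted p = 5.64e-10). Its first step was -0.06 in IGF1 hearts (adjusted p = 0.780) and -0.44 in vehicle hearts (adjusted p = 0.0275). The test of the difference between these steps gave 0.39 (adjusted p = 0.323).

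Fbl followed the same order of times. IGF1 hearts gave Fbl 5.02, 5.41, 5.40 and 5.52 at 24 h, 5.31, 5.37, 5.14 and 5.24 at 48 h, and 4.03, 4.17, 4.08 and 4.16 at 168 h. Vehicle hearts gave Fbl 5.80, 5.53, 5.65 and 5.57 at 24 h, 5.24, 5.27, 5.63 and 5.10 at 48 h, and 4.06, 3.99, 4.06 and 3.93 at 168 h. At 24 h all IGF1 arrays were below all vehicle arrays, and 1 vehicle array at 48 h reached the 24 h range. Fbl was lower at 168 h than at 24 h by 1.23 in IGF1 hearts (SE 0.11, adjusted p = 5.72e-09) and by 1.63 in vehicle hearts (SE 0.11, adjusted p = 1.17e-10) on the log2 scale.

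The box H/ACA snoRNP members Dkc1, the pseudouridine synthase, and its partners Nhp2 and Gar1, proteins that telomerase also carries, fell late by 1.27 to 1.67 in IGF1 hearts and by 1.54 to 2.10 in vehicle hearts. Nhp2 had the smallest p-value of the 35 members in the F-test over the 6 groups. Its level in IGF1 hearts was 5.08, 5.40, 5.51 and 5.57 at 24 h, 5.27, 5.38, 5.22 and 5.25 at 48 h, and 3.62, 3.78, 3.78 and 3.71 at 168 h. Vehicle hearts gave Nhp2 5.86, 5.75, 5.77 and 5.53 at 24 h, 5.26, 5.38, 5.42 and 5.15 at 48 h, and 3.65, 3.63, 3.62 and 3.63 at 168 h. The vehicle arrays at 168 h lay close together, and the 168 h arrays of both treatments lay more than 1 unit below any earlier array. Nhp2 was 3.18-fold lower at 168 h than at 24 h in IGF1 hearts (adjusted p = 1.37e-11) and 4.28-fold lower in vehicle hearts (adjusted p = 8.40e-13).

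Gar1 changed less than Nhp2 at the late step. IGF1 hearts gave Gar1 4.07, 4.33, 4.42 and 4.61 at 24 h, 4.23, 4.25, 4.21 and 4.03 at 48 h, and 3.08, 3.04, 3.14 and 3.08 at 168 h. Vehicle hearts gave Gar1 4.54, 4.64, 4.68 and 4.48 at 24 h, 4.22, 4.46, 4.25 and 3.98 at 48 h, and 3.05, 3.14, 3.05 and 2.95 at 168 h. At 168 h the arrays of the treatments overlapped. The log2 difference between 168 and 24 h was -1.27 in IGF1 hearts (SE 0.10, adjusted p = 1.63e-09) and -1.54 in vehicle hearts (SE 0.10, adjusted p = 1.19e-10).

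Among the 6 nucleolar proteins were Ncl and Npm1, abundant histone and RNA chaperones, Gnl3, a GTPase of the nucleolus known from stem cells, and Nolc1, a chaperone of snoRNPs. All 6 fell late, by 0.97 to 2.27 in IGF1 hearts and by 1.17 to 2.48 in vehicle hearts. Ddx21, an RNA helicase that acts with RNA polymerase I, was the steepest. Its level in IGF1 hearts was 2.15, 2.50, 2.83 and 3.17 at 24 h, 2.06, 2.20, 2.16 and 2.16 at 48 h, and 0.29, 0.42, 0.34 and 0.52 at 168 h. Vehicle hearts gave Ddx21 2.83, 2.74, 3.10 and 2.75 at 24 h, 2.05, 2.23, 2.34 and 2.12 at 48 h, and 0.44, 0.33, 0.27 and 0.43 at 168 h. With IGF1 the 24 h arrays were spread over a unit and touched the 48 h arrays, while at 48 h they were tight. Ddx21 was 4.83-fold lower at 168 h than at 24 h in IGF1 hearts (adjusted p = 8.47e-11) and 5.59-fold lower in vehicle hearts (adjusted p = 2.53e-11).

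Nolc1 had its larger difference after 48 h. IGF1 hearts gave Nolc1 3.09, 3.45, 3.56 and 3.59 at 24 h, 3.31, 3.32, 3.30 and 3.22 at 48 h, and 1.79, 1.87, 1.84 and 1.73 at 168 h. Vehicle hearts gave Nolc1 3.58, 3.56, 3.70 and 3.36 at 24 h, 3.26, 3.37, 3.09 and 2.94 at 48 h, and 1.73, 1.90, 1.70 and 1.50 at 168 h. In both treatments the 24 and 48 h arrays overlapped and the 168 h arrays did not. Nolc1 was lower at 168 h than at 24 h by 1.61 in IGF1 hearts (SE 0.11, adjusted p = 2.20e-10) and by 1.84 in vehicle hearts (SE 0.11, adjusted p = 3.90e-11) on the log2 scale.

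Mybbp1a, a nucleolar protein that binds Myb and takes part in ribosomal RNA processing, fell at each step. IGF1 hearts gave Mybbp1a 4.43, 4.81, 4.88 and 5.27 at 24 h, 4.31, 4.39, 4.25 and 4.26 at 48 h, and 3.26, 3.201, 3.27 and 3.36 at 168 h. Vehicle hearts gave Mybbp1a 4.90, 4.90, 5.11 and 4.95 at 24 h, 4.22, 4.35, 4.48 and 4.29 at 48 h, and 3.29, 3.22, 3.22 and 3.35 at 168 h. No array of one time overlapped those of another in either treatment. The 48 h against 24 h difference was -0.55 in IGF1 hearts (adjusted p = 0.000838) and -0.63 in vehicle hearts (adjusted p = 0.000584), and the 168 h against 48 h difference -1.03 and -1.06 on the log2 scale.

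For the late difference in vehicle hearts, Ncl had the widest gap between probes of a member. Its brightest probe differed between 168 and 24 h in vehicle hearts by -1.41 and a dimmer one by -0.50 on the log2 scale. For IGF1 against vehicle at 24 h, the brightest Heatr1 probe differed by -0.20. A far dimmer Heatr1 probe, well above background on 8 arrays, differed by -1.34. In all, 17 members had several probes past the filter.

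Small-subunit factors fell late by 0.86 to 1.55 in IGF1 hearts and by 0.90 to 1.81 in vehicle hearts. The group holds 5 parts of the processome that forms on the nascent precursor (Utp20, Heatr1, Wdr43, Wdr75 and Nop14), the RNA acetyltransferase Nat10, the nuclease Nob1 that makes the last cut of the small subunit's RNA, and the late assembly factors Tsr1 and Ltv1. Heatr1, which in yeast links transcription to processing, fell most late, by 1.55 in IGF1 hearts (adjusted p = 5.30e-09) and by 1.81 in vehicle hearts (adjusted p = 5.83e-10). Early on the order differed. Nop14 had the largest first step of the group, -0.60 in IGF1 hearts (adjusted p = 0.000656) and -0.82 in vehicle hearts (adjusted p = 0.000106). Of the 9 small-subunit factors 8 passed between 24 and 48 h in IGF1 hearts and 8 in vehicle hearts, the exception in both being Wdr75 (log2 -0.18 in IGF1 hearts, adjusted p = 0.175, and -0.22 in vehicle hearts, adjusted p = 0.132).

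Large-subunit factors fell late by 0.96 to 2.06 in IGF1 hearts and by 1.14 to 2.17 in vehicle hearts. Pes1, Bop1 and Wdr12 form one complex needed to process the large subunit's RNA. Bop1 read 3.05, 3.35, 3.24 and 3.47 in IGF1 hearts at 24 h, 2.90, 3.002, 2.80 and 2.78 at 48 h, and 1.81, 1.92, 1.86 and 1.99 at 168 h. Vehicle hearts gave Bop1 3.38, 3.48, 3.46 and 3.26 at 24 h, 2.87, 2.95, 2.74 and 2.68 at 48 h, and 1.88, 2.03, 2.08 and 1.84 at 168 h. The times stood apart in both treatments. Bop1 was 2.61-fold lower at 168 h than at 24 h in IGF1 hearts (adjusted p = 1.08e-10) and 2.70-fold lower in vehicle hearts (adjusted p = 6.02e-11). Its partners also fell, Wdr12 by -1.50 in IGF1 and -1.35 in vehicle hearts, and Pes1 by -0.96 in IGF1 and -1.14 in vehicle hearts.

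Grwd1, a chaperone of a large-subunit ribosomal protein, had the steepest late change among the large-subunit factors. IGF1 hearts gave Grwd1 1.78, 2.06, 2.39 and 2.53 at 24 h, 1.53, 1.54, 1.48 and 1.48 at 48 h, and 0.15, 0.12, 0.08 and 0.15 at 168 h. Vehicle hearts gave Grwd1 2.25, 2.48, 2.46 and 2.19 at 24 h, 1.50, 1.82, 1.86 and 1.43 at 48 h, and 0.07, 0.43, 0.31 and -0.10 at 168 h. At 48 and 168 h the IGF1 arrays were tighter than the vehicle arrays, and at 24 h they were wider. Grwd1 was 4.17-fold lower at 168 h than at 24 h in IGF1 hearts (adjusted p = 1.95e-10) and 4.50-fold lower in vehicle hearts (adjusted p = 9.69e-11).

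Nop2, a methyltransferase of the large subunit's RNA and a known marker of dividing cells, declined with the others. IGF1 hearts gave Nop2 3.74, 3.86, 4.08 and 4.31 at 24 h, 3.66, 3.61, 3.74 and 3.56 at 48 h, and 2.45, 2.66, 2.48 and 2.44 at 168 h. Vehicle hearts gave Nop2 4.01, 4.13, 4.38 and 4.003 at 24 h, 3.63, 3.84, 3.69 and 3.56 at 48 h, and 2.46, 2.77, 2.51 and 2.28 at 168 h. No 2 times overlapped in either treatment. Nop2 was lower at 168 h than at 24 h by 1.49 in IGF1 hearts (adjusted p = 1.55e-09) and by 1.62 in vehicle hearts (adjusted p = 4.64e-10) on the log2 scale.

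Nop16, another nucleolar factor of the large subunit, read 1.56, 2.00, 2.08 and 2.30 in IGF1 hearts at 24 h, 1.59, 1.66, 1.29 and 1.40 at 48 h, and 0.03, 0.34, 0.34 and 0.45 at 168 h. Vehicle hearts gave Nop16 2.11, 2.20, 2.38 and 2.03 at 24 h, 1.54, 1.76, 1.51 and 1.53 at 48 h, and 0.13, 0.34, 0.21 and 0.17 at 168 h. In IGF1 hearts the lowest 24 h array lay among the 48 h arrays, and in vehicle hearts the times did not overlap. Nop16 was 3.23-fold lower at 168 h than at 24 h in IGF1 hearts (adjusted p = 8.97e-10) and 3.91-fold lower in vehicle hearts (adjusted p = 1.17e-10).

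Noc2l and Noc3l are partners in the transport of pre-ribosomes, known from yeast. Noc2l read 2.50, 2.80, 2.98 and 3.13 in IGF1 hearts at 24 h, 2.58, 2.52, 2.49 and 2.46 at 48 h, and 1.48, 1.61, 1.47 and 1.61 at 168 h. Vehicle hearts gave Noc2l 2.91, 3.07, 3.12 and 2.98 at 24 h, 2.48, 2.62, 2.57 and 2.44 at 48 h, and 1.55, 1.51, 1.50 and 1.60 at 168 h. The group means at 168 h were the same to 2 decimals, 1.54 with IGF1 and 1.54 with vehicle. Noc2l was lower at 168 h than at 24 h by 1.31 in IGF1 hearts (adjusted p = 4.82e-10) and by 1.48 in vehicle hearts (adjusted p = 9.69e-11). The remaining large-subunit factors, Noc3l and Rrs1, differed late by -1.32 and -1.18 in IGF1 hearts and by -1.52 and -1.21 in vehicle hearts.

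IGF1 against vehicle asks whether the treatment changed these genes at a given time. At 24 h most members stood slightly lower with IGF1, and 1 passed the test. By limma 1 of 35 members was lower with IGF1 (7.26% of all genes) and 0 were higher (8.76% of all genes), with 5 members at an unadjusted p under 0.05. The share of all genes at that unadjusted p is not given here, and it cannot be smaller than the shares that passed. The log2 difference was negative in 32 members and its median was -0.13, beside 0.01 for all genes. That median was -0.08 with array weights, -0.03 without IGF1 replicate 1 and -0.26 without IGF1 replicate 4. The member that passed was Nhp2, at 5.39 ± 0.22 in IGF1 hearts and 5.73 ± 0.14 in vehicle hearts (SD, n = 4 each), a log2 difference of -0.34 (SE 0.09, adjusted p = 0.0182 by limma). Its 4 IGF1 arrays overlapped the vehicle arrays through IGF1 replicate 4 (5.57) and vehicle replicate 4 (5.53). The Nhp2 call was lost in 4 of 19 alternatives, with adjusted p between 0.00927 and 0.146: with the arrays of the compared groups alone, and with IGF1 replicate 1, vehicle replicate 1 or vehicle replicate 2 left out.

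The next members in order of p did not pass. The log2 differences at 24 h were -0.33 for Polr1c (adjusted p = 0.0597), -0.30 for Fbl (adjusted p = 0.0616), -0.23 for Gar1 (adjusted p = 0.126), -0.31 for Nop58 (adjusted p = 0.147) and -0.17 for Noc2l (adjusted p = 0.238). A second, dimmer Polr1c probe differed by -0.09. For Myc the difference was -0.26 (SE 0.15, adjusted p = 0.257), with 1.26 ± 0.44 in IGF1 hearts and 1.53 ± 0.23 in vehicle hearts (SD, n = 4 each). Across the 35 members the 95% confidence intervals reached from -0.62 to 0.33. These limits bound the members as a set, and for a member that did not pass only differences within its own interval are not excluded.

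**Figure D3:**
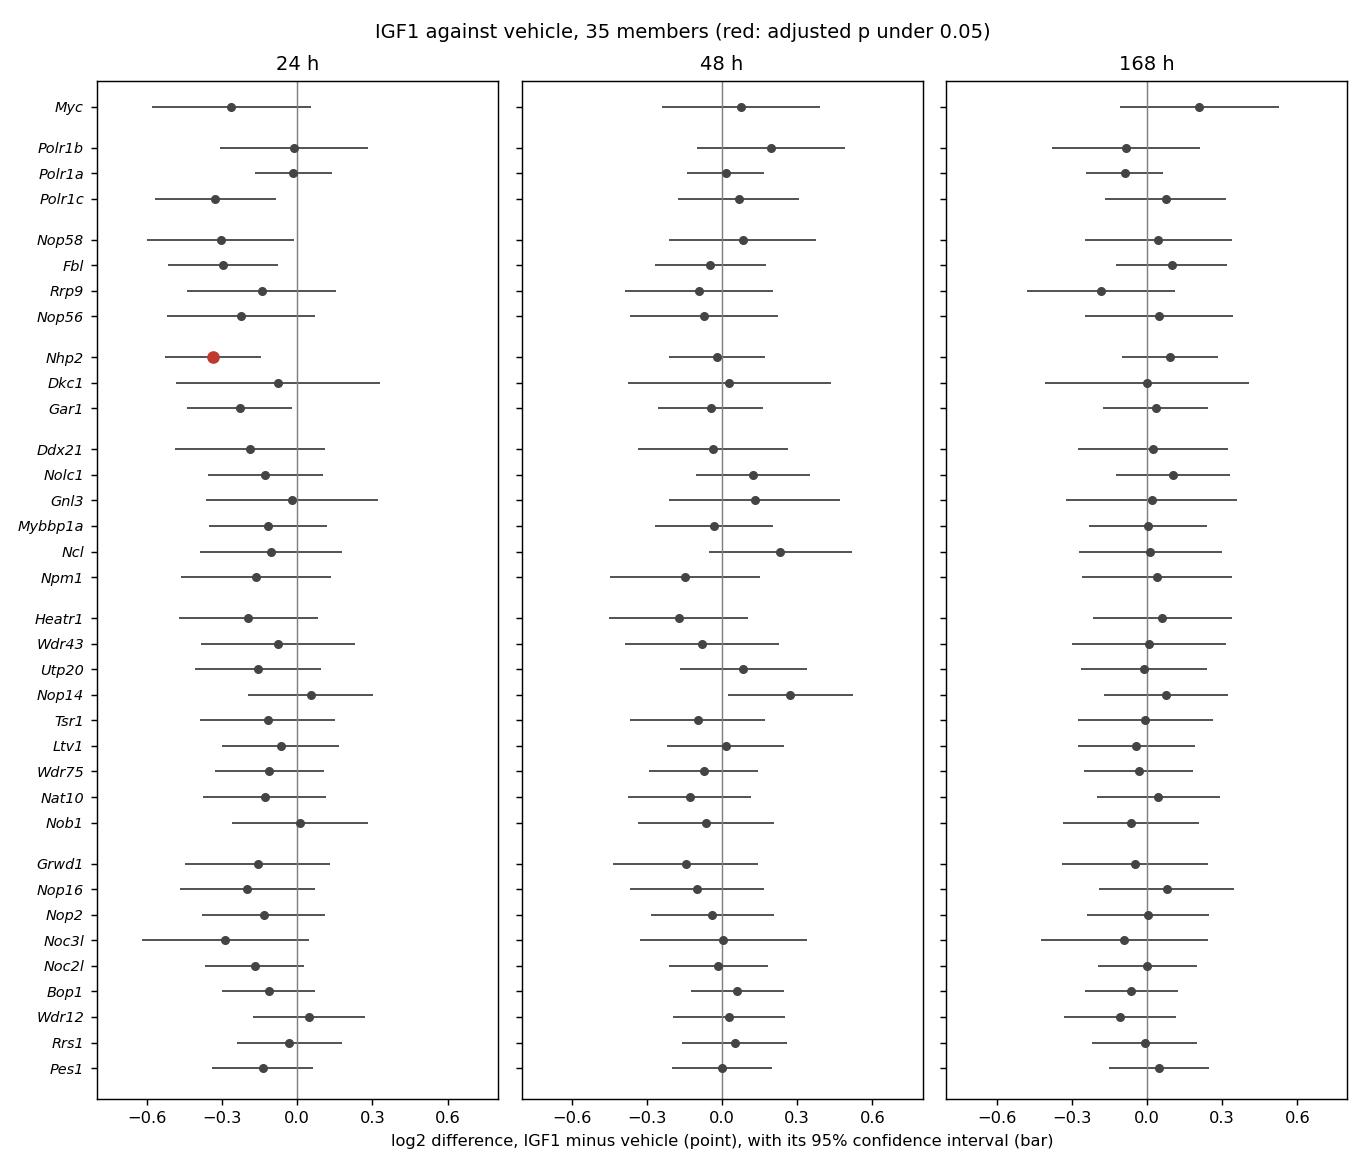
The log2 difference between IGF1 and vehicle hearts (x axis) for each of the 35 genes at 24, 48 and 168 h, with 95% confidence intervals of the limma fit as bars. Most points at 24 h lie left of 0 and 1, Nhp2 at -0.34, passes the threshold (red), and points at 48 and 168 h lie on either side of 0.

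The 24 h IGF1 arrays differed among themselves more than the vehicle arrays. The mean level of the 35 members was 2.41, 2.69, 2.85 and 3.07 on IGF1 replicates 1 to 4, and 2.84, 2.90, 3.04 and 2.79 on the vehicle replicates. IGF1 replicate 1 was the lowest of its group in 32 members and replicate 4 the highest in 30. Each slide held 1 array of either treatment at this time, and the members' median log2 difference within the 4 slides was -0.41, -0.24, -0.19 and 0.27. On the last of these slides 34 of 35 members were higher with IGF1, so the direction was not shared by all slides. That count sets 1 array against 1 array, and the shift of all genes on the slide is not given here. Without IGF1 replicate 4, 8 members passed, without IGF1 replicate 3, 2 passed, without vehicle replicate 4, 3 passed, and without IGF1 replicate 1, vehicle replicate 1 or vehicle replicate 2, 0 passed. The shares of all genes passing in these settings are not given here. IGF1 replicate 1 also had the highest cardiomyocyte marker level, a mean of 7.90 over 10 markers beside 7.55 to 7.59 on the other IGF1 arrays and 7.08 to 7.48 on the vehicle arrays. Of the 10 markers 6 were higher with IGF1 at 24 h. Of 9 T, NK and B cell markers 8 were lower with IGF1 (median -1.12), with mean levels of -2.81 to -2.29 on the IGF1 arrays and -1.60 to -1.23 on the vehicle arrays. Of 10 monocyte and macrophage markers 6 were lower and 1 higher (median -0.62), with mean levels of 3.10 to 3.40 on the IGF1 arrays and 3.70 to 3.74 on the vehicle arrays. Neither list's means overlapped between treatments, unlike those of the members. The part of these differences in the members' values was not tested.

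At 48 h and 168 h no member passed between treatments. At 48 h limma called 0 of 35 members higher (0% of all genes) and 0 lower (0.0126% of all genes), with 1 member at an unadjusted p under 0.05 and differences between -0.17 for Heatr1 and 0.27 for Nop14. At 168 h it called 0 higher (0%) and 0 lower (0%), with 0 at an unadjusted p under 0.05 and differences between -0.18 for Rrp9 and 0.21 for Myc. At neither time is the share of all genes at that unadjusted p given here. The 95% confidence intervals of all members together ran from -0.45 to 0.52 at 48 h and from -0.48 to 0.53 at 168 h. A given member may still have differed within its own interval. Within slides the members' median at 48 h was close to 0 on one of the 2 slides that held both treatments and -0.09 on the other, and at 168 h it was close to 0 on one and 0.11 on the other. On the slide with 1 array of each treatment at 168 h, 29 of 35 members were higher with IGF1. The shift of all genes between these arrays is not given here.

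The change of the IGF1 effect over time was tested directly. Between 48 and 24 h it differed in 0 members (0.0126% of all genes higher and 0.0567% lower), with 2 at an unadjusted p under 0.05. For all genes the share at that unadjusted p is not given here. Between 168 and 24 h it was higher in 1 member, again Nhp2 (log2 0.43, SE 0.13, adjusted p = 0.0402), beside 5.73% of all genes, and lower in 0 (5.35% of all genes). At 168 h Nhp2 differed by 0.09 between treatments. Its call was lost in 14 alternatives, with adjusted p from 0.0203 to 0.0927. The F-test of the IGF1 effect over the 3 times called 0 members (5.60% of all genes), whereas the F-test over the 6 groups called 35 (76.5% of all genes).

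Other genes of the same pathway were read from lists chosen by function, with earlier results of these data known. Of 57 measured biogenesis factors outside the set, 55 were lower at 168 h than at 24 h in IGF1 hearts and 55 in vehicle hearts, with medians of -0.92 and -0.98 on the log2 scale and 0 higher. Mrto4, which acts on the stalk of the large subunit, differed by -1.60 in IGF1 hearts and -1.83 in vehicle hearts. For Ftsj3, an RNA methyltransferase, the log2 differences were -1.61 in IGF1 hearts and -1.79 in vehicle hearts, and for Emg1, a factor of the small subunit, -1.004 in IGF1 hearts and -1.11 in vehicle hearts. At the first step 30 of the 57 were lower in IGF1 hearts and 40 in vehicle hearts, and at 24 h 1, Imp4, was lower with IGF1 (log2 -0.31, adjusted p = 0.0294). Of 11 further subunits and initiation factors of RNA polymerase I, 8 were lower late in both treatments. Rrn3, which makes the polymerase competent to start, differed by -0.92 in IGF1 hearts and -0.85 in vehicle hearts.

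Ribosomal protein genes fell late, by less than the members in the median. Of 42 cytosolic ribosomal protein genes, 0 were lower at 48 h than at 24 h in IGF1 hearts and 0 in vehicle hearts by limma. At an unadjusted p under 0.05 there were 5 and 3 in either direction, with the share of all genes not given here. The medians of the 42 genes at that step were 0.02 in IGF1 and -0.03 in vehicle hearts. At 168 h against 24 h, 37 were lower and 1 higher in IGF1 hearts (median -0.40), and 40 lower and 0 higher in vehicle hearts (median -0.59). Rps2, a protein of the small subunit, differed by -0.94 in IGF1 hearts and -1.08 in vehicle hearts. The count depended on the scaling. With quantile normalization 13 were lower and 2 higher late in IGF1 hearts, and 21 were higher at the first step. With normexp background correction as well, 9 were lower and 2 higher late in IGF1 hearts and 24 lower and 1 higher in vehicle hearts.

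**Figure D4:**
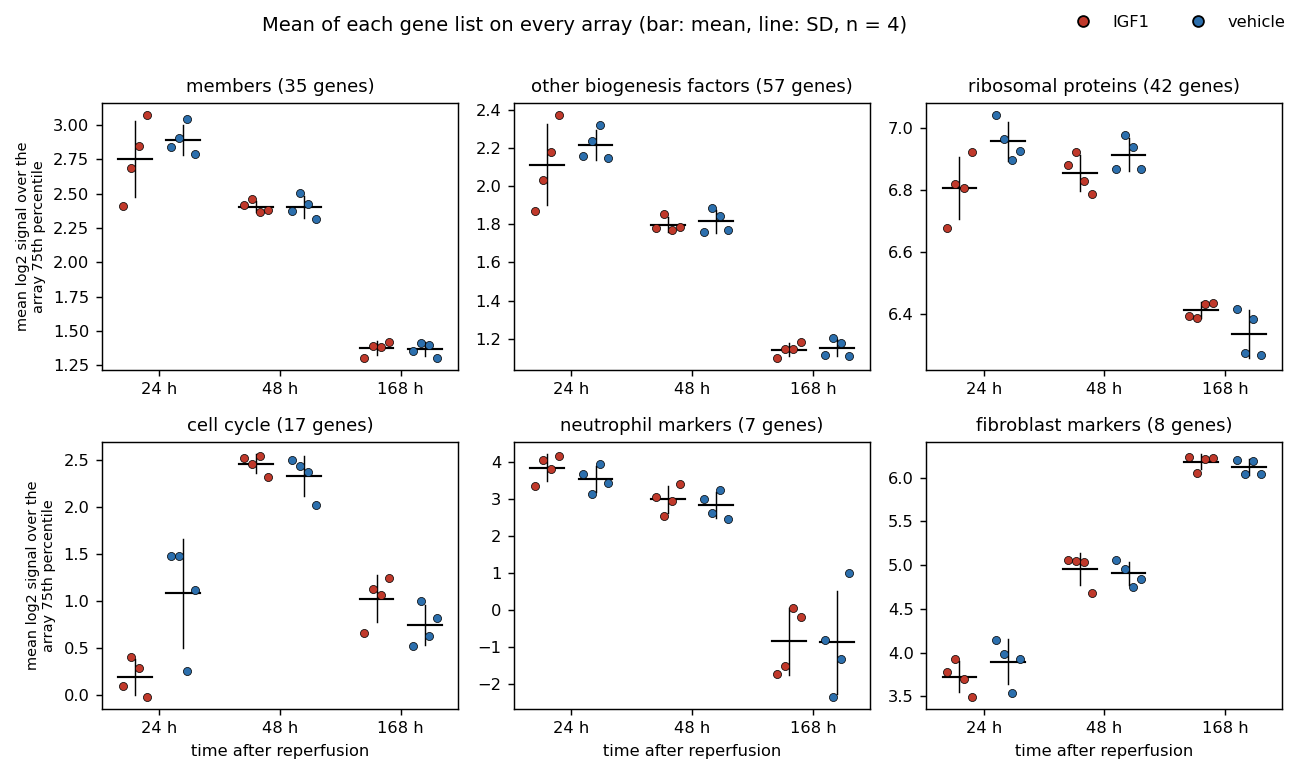
Mean level (log2 signal over the 75th percentile of the array, y axis) of 6 gene lists on every array at 24, 48 and 168 h (x axis), IGF1 in red and vehicle in blue, with the group mean as a bar and the SD as a line (n = 4). The 35 members and the other biogenesis factors step down at 48 and again at 168 h, the ribosomal proteins at 168 h, and the cell cycle genes peak at 48 h.

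Cell cycle genes did not share the members' course. Of 17 cell cycle genes, all 17 rose between 24 and 48 h in IGF1 hearts (median 2.57) and 12 in vehicle hearts (median 1.44), over the same interval in which 21 and 29 members fell. All 17 were lower at 168 h than at 48 h in both treatments. With IGF1 at 24 h 17 were lower (median -1.01), against 1 of 35 members. That count was 0 with the arrays of the compared groups alone, 11 without vehicle replicate 1 and 8 without vehicle replicate 2. The mean level of the list on vehicle replicate 3 at 24 h was 0.26, beside 1.48, 1.48 and 1.12 on the other vehicle arrays, and -0.02 to 0.40 on the IGF1 arrays.

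Targets of Myc outside ribosome biogenesis also fell late, with fewer lower at the first step. Over the alternatives, between 24 and 48 h 3 to 8 were lower and 1 to 2 higher in IGF1 hearts. In vehicle hearts 5 to 7 were lower and 0 to 1 higher. Of 21 such genes 18 were lower and 1 higher at 168 h than at 24 h in IGF1 hearts (median -0.86) and likewise 18 and 1 in vehicle hearts (median -1.09). Apex1, a DNA repair nuclease, differed by -1.15 in IGF1 hearts and -1.32 in vehicle hearts, and Prmt1, an arginine methyltransferase, by -1.27 and -1.56. Partners and antagonists of Myc were divided, with 4 of 11 higher and 3 lower in either treatment. Mycn, a relative of Myc, was higher at 168 h than at 24 h by 1.41 in IGF1 hearts (adjusted p = 4.95e-06) and by 1.71 in vehicle hearts (adjusted p = 3.63e-07). Mxd1, which competes with Myc for Max, was lower, by 1.35 in IGF1 hearts (adjusted p = 2.17e-06) and by 1.52 in vehicle hearts (adjusted p = 4.39e-07).

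The mix of cells changed over the same interval. Neutrophil markers fell, with 6 of 7 lower at 168 h than at 24 h in IGF1 hearts (median -6.83) and 5 of 7 in vehicle hearts (median -5.52). Their mean level ranged from 3.35 to 4.16 on the IGF1 arrays and from 3.12 to 3.93 on the vehicle arrays at 24 h, and from -1.71 to 0.06 and from -2.33 to 0.99 at 168 h. At 168 h Retnlg was well above background on 2 of 4 IGF1 arrays and 1 of 4 vehicle arrays, and Cxcr2 on 2 of 4 in either treatment, so part of these values lies at the background. Fibroblast markers rose, with 7 of 8 higher late in either treatment and medians of 2.72 in IGF1 and 2.35 in vehicle hearts. Their mean level was 3.50 to 3.93 with IGF1 and 3.54 to 4.14 with vehicle at 24 h, and 6.06 to 6.24 with IGF1 and 6.05 to 6.20 with vehicle at 168 h. Monocyte and macrophage markers were mixed, with 5 of 10 higher and 2 lower in IGF1 hearts and 3 higher and 4 lower in vehicle hearts. The part of these shifts in the members' decline was not tested.

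The late decline was also read within the slides that held both times. In IGF1 hearts the members' median log2 difference between 168 and 24 h was -1.01 on one such slide and -1.68 on another, with 0 of 35 members higher on either. In vehicle hearts the members' median log2 difference between 168 and 24 h was -1.38 and -1.42 on the same slides, again with 0 members higher. For 168 against 48 h in IGF1 hearts no slide held both times. With the slide as a block, which the 24 h arrays on all 4 slides allow, 35 members were lower there, with a median of -0.86 beside -0.97 without the block.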

How the data were processed

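One-colour Agilent mouse arrays of 24 tissue samples were used, 6 groups of 4. The deposited scanner files hold intensity values per spot, extracted with Agilent Feature Extraction 12.0.3.2 and already background-subtracted in the processed signal, per the file headers. The authors also deposited a table of log2 values with its scaling not stated. Set against the scanner values, its 33934 matched probes followed the log2 processed signal minus each array's 75th percentile, apart from 1 constant per probe. The residual SD after that constant was at most 2.21e-06, and column medians were -0.0557 to 0.0527. The deposited values are thus centred per probe, while the values used here are levels and are not centred.

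The same scaling was applied here to the mean of unflagged spots per probe. Between 53 and 130 spots per array were flagged and 0 were saturated. Probes well above background on at least 4 of 24 arrays were kept. Accessions gave 33767 of 56605 probes 1 symbol, 22838 none and 0 several (RefSeq table, GRCm38.p6). The brightest probe stood for a gene. limma 3.58.1 in R 4.3.3 fitted 6 group means, with two-sided moderated tests and Benjamini-Hochberg adjustment over 15875 genes at a threshold of 0.05. The number of arrays limits the precision. Simulated data for IGF1 against vehicle at 24 h, with 200 of 15875 genes changed, gave 48% recovery at a log2 change of 0.5, 86% at 1, and 10 false calls. The simulated noise was independent between genes, with 1 spread per gene on all arrays. The real 24 h arrays also shifted together over many genes, so these rates may not hold for them.

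The members and lists were chosen with earlier results of these data known. Values on every array are given for Myc, the 12 members with the smallest p over the 6 groups and the 6 with the smallest p for IGF1 at 24 h, and the other lists are illustrated by genes among their 3 smallest p-values for vehicle hearts at 168 against 24 h or IGF1 at 24 h. Nop14, Polr1b, Heatr1, Rrp9 and the other members described by single differences, and the markers Retnlg, Cxcr2, Myh6 and Tnnt2, were named after their values were seen.

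Equal replicate numbers were checked for pairing. Deviations from group means correlated between same-numbered arrays with r of 0.13, -0.05, 0.11 and 0.08 at 24 h, 0.10, 0.06, -0.01 and 0.11 at 48 h, and 0.29, 0.19, 0.19 and 0.50 at 168 h. The values were thus largest at 168 h, where replicate 4 of either treatment sat on a different slide from the other replicates. Replicates 1 to 3 of both treatments shared a slide at 168 h, and between unlike numbers among them r was -0.08 to 0.06. The source of this correlation was not tested. The main model fitted no pairing at any time. Alternatives were other background corrections and scalings, filters, probe rules, the deposited values, slide and replicate blocks, array weights, the compared groups alone, and each array left out.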

Additional observations from a re-analysis of the deposited data

Results flagged for a closer look

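The change of the IGF1 effect on Nhp2 between 168 and 24 h was 0.43 on the log2 scale (adjusted p = 0.0402 by limma), a tested difference between times. Within groups of 4 arrays, 3 values stood far from the rest by Dixon's criterion, out of 216 groups examined, of which chance flags about 1 in 20. Ltv1 read 2.46 on vehicle replicate 4 at 168 h, beside 2.21 to 2.25 on the other arrays. Nop16 read 1.76 on vehicle replicate 2 at 48 h, beside 1.51 to 1.54. Nop2 read 2.66 on IGF1 replicate 2 at 168 h, beside 2.44 to 2.48.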

How the results depend on the processing

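The late counts were 34 or 35 of 35 under the alternatives run. The exceptions to 35 were Polr1c at 168 against 24 h in IGF1 hearts (lost under 10 of 19), Ncl at 168 against 48 h in IGF1 hearts (adjusted p = 0.0762 by limma with the mean of probes) and Nop14 at 168 against 48 h in vehicle hearts (adjusted p = 0.0539 with the slide as a block). With single arrays left out they were 34 to 35 at 168 against 24 h in IGF1 hearts and 35 to 35 otherwise. The number lower at 48 h than at 24 h was 11 in IGF1 hearts with the compared groups alone and 14 to 25 with single arrays left out, and 18 to 29 in vehicle hearts with single arrays left out. For IGF1 against vehicle at 24 h it was 2 with normexp and quantile normalization, 3 with quantile normalization, 0 with the compared groups alone and 0 to 8 with single arrays left out. At 48 and 168 h, and for the change of the IGF1 effect between 48 and 24 h, it was 0 to 0 with single arrays left out. For the change between 168 and 24 h it was 0 with median centring, 0 without the filter on dim probes, 0 with the compared groups alone and 0 to 2 with single arrays left out. The cause of these shifts was not tested, and the number of all genes passing in each setting of this section is not given. The last 2 settings also used fewer arrays. The replicate block gave 31 members lower between 48 and 24 h in vehicle hearts and 21 in IGF1 hearts, 1 for IGF1 at 24 h, 0 at 48 h, 0 at 168 h and 35 for the late steps, so it changed no 168 h call. That block was shared by all times, so pairing at 168 h alone was not tested. At 168 against 24 h, median centring gave a median of all genes of -0.19 in IGF1 hearts, beside -0.09 with the 75th percentile, and of -0.13 in vehicle hearts, beside -0.03. Of the alternatives for single genes, 116 lost a call, 3 gained one and 0 reversed.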
